A study of Mus musculus with 12 samples.

Results

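The sites described here are the far intergenic binding sites of Rev-Erbα in mouse brown adipose tissue: peaks that the deposited annotation places outside any gene and more than 100 kb from the transcription start site of the nearest annotated gene. In the list of peaks from mice kept at 4 °C, 1194 of 11227 sites met both conditions, or 10.6% (95% exact interval 10.1 to 11.2). In the list from mice kept at 29 °C, 262 of 2183 did, or 12% (10.7 to 13.4). Counting overlapping sites once, the series holds 11740 sites.

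The study mapped HA-tagged Rev-Erbα by chromatin immunoprecipitation and sequencing (ChIP-seq) after 1 week of cold or of thermoneutral housing. All mice were of strain C57BL/6, and all pull-downs used anti-HA magnetic beads. HA-RevErba mice, which carry Rev-Erbα with the HA epitope, gave 4 libraries at 4 °C (chronic cold) and 4 at 29 °C (thermoneutrality). Wild-type mice (WT), which carry no tagged protein and so show the background of the pull-down, gave 2 libraries at each temperature. How the tagged allele was made, and the animals' age and sex, are not stated in the sources used here, nor whether each library is 1 animal. The peak lists hold no expression values, so the identity of the tissue could not be checked against marker genes.

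Rev-Erbα, the product of Nr1d1, is a nuclear receptor of the circadian clock that binds DNA at retinoic acid receptor-related orphan receptor elements and represses transcription by recruiting the NCoR corepressor and histone deacetylase 3. Much of its binding lies at enhancers away from promoters, and an enhancer can act on a gene across a long stretch of DNA by looping. In brown fat Rev-Erbα is known as a repressor of thermogenic genes. The gene named beside a far site is only the one with the nearest start site, and other genes, including more distant ones, could be the ones a site acts on.

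The 12 libraries held 27.0 to 37.3 M (mega) aligned reads, and 2.54% to 7.37% of reads did not align. Values per site exist only for 4 pools, 1 for each genotype and temperature, with 63.8 M reads (HA-RevErba, 4 °C), 60.8 M (HA-RevErba, 29 °C), 27.1 M (WT, 4 °C) and 25.1 M (WT, 29 °C). A comparison between temperatures therefore has no replicate check, and no test between them was made. The unit is FPKM, here the reads in a 200 bp window per kilobase and per M reads of the pool, which is a density of pulled-down DNA and not an expression level. The 4 °C to 29 °C ratio of a window was computed from the HA-RevErba reads and the pool sizes, with an exact Clopper-Pearson interval at 95% that covers counting error only. More cells with a bound site and more binding per cell cannot be told apart in such pools.

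Far sites had a slightly lower median density than the whole list. Over the 1194 far sites of the 4 °C list the median was 6.75 FPKM in the HA-RevErba pool at 4 °C (10th to 90th percentile, 4.09 to 13.5), against 1.12 FPKM in WT. In the same windows the 29 °C pools had medians of 2.15 FPKM (HA-RevErba) and 1.01 FPKM (WT). All 11227 windows of the 4 °C list had medians of 7.07 and 2.39 FPKM in the HA-RevErba pools. The typical far site thus rested on 86 reads at 4 °C and 26 at 29 °C in the HA-RevErba pools. The WT medians were 6 and 5 reads. These come from smaller pools (27.1 and 25.1 M reads, against 63.8 and 60.8 M), so only the FPKM values compare the genotypes. The authors' peak score, which is reads per window for each 10 M in the pool, had a median of 13.5 at far sites and 14.1 in the whole list. Among the 2183 highest-scoring peaks of the 4 °C list, as many as the 29 °C list holds, 202 were far, or 9.25% (8.07 to 10.5).

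The far sites changed between the pools much as all sites did. At 1126 of the 1194 far sites, or 94.3%, the interval of the 4 °C to 29 °C ratio lay above 1, against 95.4% of all windows of the 4 °C list. It lay below 1 at 8 far sites, or 0.67%, against 0.41% of all windows, and included 1 at 60. The median ratio was 3.06 (10th to 90th percentile, 1.73 to 6.34) at far sites and 3.05 (1.73 to 5.76) over the whole list. These windows were selected on their 4 °C signal, so a ratio above 1 describes the list and supports nothing about the far sites in particular. Every listed site exceeded the WT value of its own temperature by at least 3 FPKM and, within rounding, 4 times.

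In the windows of the 29 °C list the excess at 4 °C was smaller. The 262 far sites of that list had medians of 9.34 FPKM in the cold and 5.36 at 29 °C in the HA-RevErba pools, and of 1.30 and 0.81 FPKM in WT. Their median ratio was 1.53 (0.613 to 2.64), against 1.64 for every window in that list. The interval lay above 1 at 153 of them, or 58.4%, where 66.8% of all windows in that list had such an interval. It lay below 1 at 31, or 11.8%, where 7.74% of all windows did. Far sites of the 29 °C list thus had a lower share above 1 and a higher share below 1 than the whole list. Their median ratio did not set them apart, since its interval, 1.4 to 1.68, included the 1.64 of the whole list. These windows were selected on their 29 °C signal, and the differences from the whole list were not tested.

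How far the ratios depart from 1 depends on the scaling of the pools. Scaling so that summed WT reads were equal divided every ratio by 1.02 over all 4 °C windows (0.03 on the log2 scale), by 1.44 over shared windows (0.53) and by 1.71 over all 29 °C windows (0.77). Each factor is moved by how its windows were selected: low WT signal at 29 °C was required in the 29 °C list, which raises the last factor, and low WT signal at 4 °C in the 4 °C list, which lowers the first. With the last factor, the interval lay above 1 at 769 far sites of the 4 °C list, or 64.4%, and at 65.6% of all windows. The median over far sites of the 29 °C list then fell to 0.898, which is below 1. A direction given below for a site with a ratio between 1 and 1.71 is therefore one under scaling by pool reads, and turns under the largest factor.

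Most far sites of the cold list had no peak at 29 °C, while most far sites of the 29 °C list had one in the cold. Of the 1194 far sites at 4 °C, 196 shared at least 1 bp with a 29 °C peak (shared sites), or 16.4% (14.4 to 18.6), beside 14.7% (14.0 to 15.4) of the other 4 °C sites. The same 196 sites made up 74.8% of the far 29 °C sites (69.1 to 79.9), beside 76.7% of the other 29 °C sites. Each of them overlapped a site that was also far in the other list. This left 998 far sites listed at 4 °C only and 66 listed at 29 °C only.

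These 3 groups differed in level. The listing limits that made the groups act on these same FPKM values, so the differences between groups describe the lists. The shared far sites had medians of 11.4 FPKM in the cold and 5.85 at 29 °C, against 1.30 and 0.81 FPKM in WT. At the 998 sites listed at 4 °C only, the HA-RevErba medians were 6.28 and 1.98 FPKM, and the WT medians 0.93 and 1.01. A missing peak did not mean a missing signal: at 840 of these 998 sites, or 84.2%, the HA-RevErba pool at 29 °C was above its WT pool, much as at 83.8% of all sites listed at 4 °C only. At 29 °C, 10 of them reached both listing limits, 33 missed the fold limit alone, 138 missed the difference limit alone and 817 missed both. The 66 sites listed at 29 °C only had nearly equal medians, 4.28 FPKM in the cold and 4.37 at 29 °C, against 1.30 and 0.61 in WT. The median ratio was 1.84 at shared far sites, 3.31 at those listed at 4 °C only and 0.905 at those listed at 29 °C only. Over all sites of each kind, far or not, the medians were 1.88, 3.28 and 1.09.

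**Figure D1:**
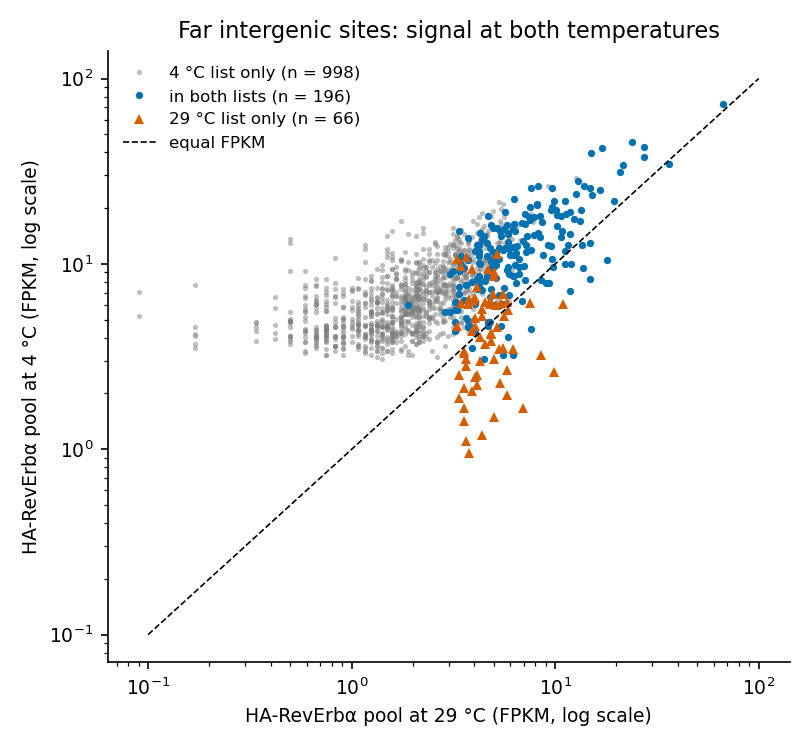
HA-RevErba read density at 29 °C (x axis) and 4 °C (y axis), both in FPKM on log scales, at the far intergenic sites of both lists; each point is 1 site in 1 pool per temperature, read in the window of the 4 °C list or, for triangles, of the 29 °C list. The 998 sites listed at 4 °C only lie above the dashed line of equal FPKM, most of the 196 shared sites do too, and the 66 sites listed at 29 °C only lie around it.

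Far sites listed at 29 °C only had a higher share of intervals below 1 than all sites listed at 29 °C only. Their interval lay below 1 at 23 of 66, or 34.8%, above 1 at 14 and included 1 at 29. Among all 513 sites listed at 29 °C only, 22.2% had an interval below 1. The listing limits act on the values behind these intervals, so both shares describe the list, and their difference was not tested. The 66 sites were spread over 55 annotated genes, of which 7 had more than 1.

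The strongest far sites were mostly shared. Of the 12 with the highest 4 °C score, taking 1 per gene, 10 overlapped a 29 °C peak and 11 had an interval above 1, the first of them only just. They ran from 26.44 to 73.33 FPKM at 4 °C and from 9.22 to 66.54 FPKM at 29 °C, while no WT value exceeded 4.99 FPKM. A distance from WT at 4 °C was a condition of being listed, and so describes the list.

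The top far site lay 227 kb upstream of Il12b, which encodes the p40 subunit of the cytokines IL-12 and IL-23 (chr11:43986751-43986951, build mm9, in a B4 repeat of the SINE class). Its HA-RevErba values were 73.33 FPKM in the cold and 66.54 at 29 °C, from 935 and 809 reads, and its WT values 3.33 and 2.40 FPKM. The ratio was 1.10 (1.0 to 1.21), so this site, the highest in both lists among far sites, hardly differed between the pools. Next came a site 101 kb upstream of Kcne2, a potassium channel subunit gene (chr16:92191643-92191843), with 45.65 FPKM in the cold and 23.86 at 29 °C, against 1.85 and 1.41 in WT. Its ratio was 1.91 (1.66 to 2.21).

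A site 143 kb upstream of Irf2bp2, a transcriptional corepressor gene (chr8:129259811-129260011), had 42.75 FPKM in the cold and 27.23 at 29 °C, against 3.88 and 4.99 in WT, a ratio of 1.57 (1.37 to 1.81). It did not stand alone. The annotation gave 2 far sites to Irf2bp2 and 7 to Tomm20, an import receptor of the outer mitochondrial membrane, and these 9 sites fell within 131 kb of each other. Of the 9, 8 had an interval above 1, and the ratio ran from 0.875 to 7.31. The highest Tomm20 site (138 kb downstream) had 26.36 FPKM in the cold and 13.91 at 29 °C, against 1.67 and 3.80 in WT.

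Slc41a2, a magnesium transporter gene, had a site at 127 kb with 42.35 FPKM in the cold and 17.03 at 29 °C, against 2.41 and 2.60 in WT (ratio 2.49, 2.12 to 2.93). Brms1l, a gene of the Sin3 histone deacetylase complex, had one at 174 kb with 39.61 and 15.06 FPKM, against 1.12 and 0.21 in WT (ratio 2.63, 2.22 to 3.13). Both were about as high in the cold as the Irf2bp2 site and lower at 29 °C. A site 134 kb upstream of Nrip1, which encodes the nuclear receptor corepressor RIP140, had 34.12 and 21.56 FPKM, against 1.30 and 1.41 in WT (ratio 1.58, 1.36 to 1.85). Nrip1, the only one of 13 white adipocyte markers with far sites, had 4 in all, among 14 cold peaks of these markers at any distance. Each of the 4 had an interval above 1, as had 94.3% of all far cold sites. Of the 4, 2 were shared, where 16.4% of all far cold sites were. Over the whole cold list 10.6% of peaks were far, and differences from these shares were not tested.

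The exception among the 12 was a site 143 kb upstream of the non-coding gene 2900052N01Rik (chr9:46578365-46578565), which lay in a simple repeat. It had 34.59 FPKM in the cold and 36.36 at 29 °C, against 1.30 and 0.81 in WT, and its interval included 1 (ratio 0.951, 0.832 to 1.09). The other members of the 12 were sites beside Pik3r1 (ratio 1.38), the non-coding gene 4930405L22Rik (1.5), the zinc finger genes Zfp608 (2.31) and Tshz1 (2.16), and Esm1 (2.87), an endothelial proteoglycan gene. Zfp608 and Esm1 were the ones listed at 4 °C only. At Zfp608 the 29 °C pools had 12.59 FPKM and, in WT, 3.0. This window reached both listing limits at 29 °C, although no 29 °C peak overlapped it. At Esm1 the 29 °C pools had 9.22 FPKM and, in WT, 3.20, short of the limit of 4 times WT. Among the 12 highest shared sites, Spry4, an inhibitor of receptor tyrosine kinase signalling, had the largest ratio, at 3.20 (2.56 to 4.05).

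**Figure D2:**
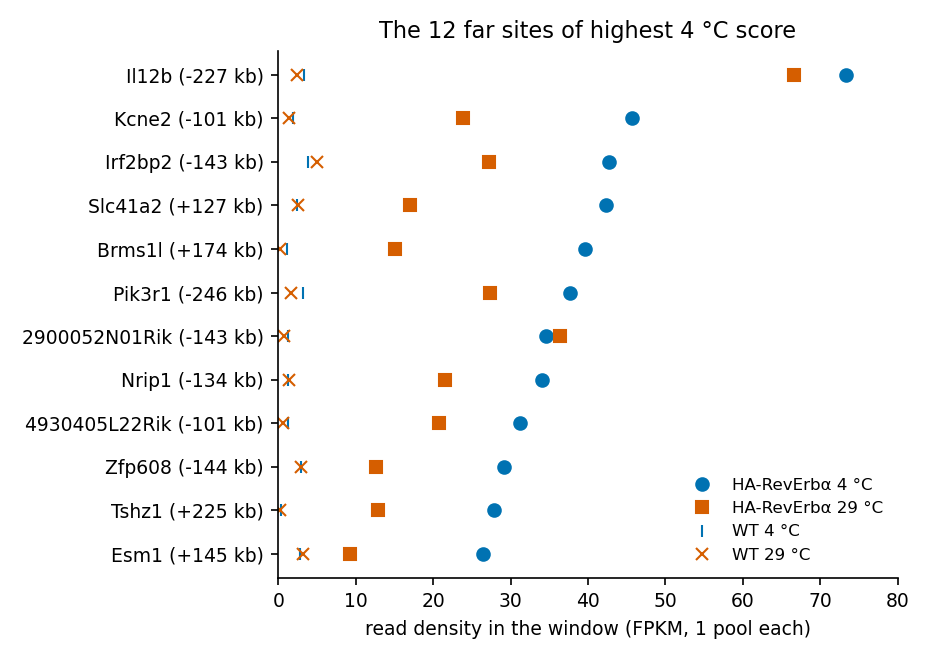
Read density in FPKM (x axis) of the 4 pools at the 12 far sites of highest 4 °C score, 1 per annotated gene, with the distance from the start site in brackets; each mark is the value of 1 pool, so there is no error bar. The HA-RevErba marks lie between 9.22 and 73.33 FPKM and the WT marks at or below 4.99, and only the 2900052N01Rik site is higher at 29 °C.

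The largest cold excess was found at sites without a 29 °C peak. A low 29 °C signal both raises the ratio and keeps a site off the 29 °C list, so this describes the listing. Among far sites with at least 20 reads in the HA-RevErba pool at 29 °C, the largest ratio was 182 kb upstream of Brinp3, a gene expressed in neurons, with 16.95 FPKM in the cold and 1.74 at 29 °C, against 0.56 and 1.21 in WT (ratio 9.81, 6.26 to 16.2). Stmnd1 (7.67), Olfm4 (7.03), Sgcz (6.90), Ppp1r3b (6.64) and Sema6a (6.41) followed. Ppp1r3b encodes a glycogen-targeting subunit of protein phosphatase 1, Sgcz a sarcoglycan and Sema6a a semaphorin. The site 180 kb upstream of Ppp1r3b had 14.75 FPKM in the cold and 2.23 at 29 °C, against 2.77 and 1.01 in WT. Over these 6 sites the HA-RevErba pool at 29 °C had 1.74 to 2.23 FPKM and the WT pool 0.81 to 1.21, so the ratios rest on 29 °C values not far above background.

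A high 29 °C signal, in turn, lowers the ratio and favours a 29 °C peak. Within the 4 °C list, the smallest ratios at far sites with at least 20 reads at 29 °C were at shared sites whose interval lay below 1. The 5 described here lay beside Adamts15 (0.521), Slc7a11 (0.556), Gpam (0.583), Tab2 (0.586) and the non-coding gene 4933416E03Rik (0.603). At these 5 the 29 °C HA-RevErba pool had 5.52 to 17.94 FPKM and the 4 °C pool 3.23 to 10.52, while the WT pools had at most 1.48. The WT pool at 29 °C was as low as 0.01 FPKM, the value the files give to 0 reads, at the Adamts15 site.

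Slc7a11, the cystine-glutamate antiporter gene, had sites that leaned opposite ways. Its far site, 131 kb downstream of the start in a simple repeat (chr3:50115986-50116186), had 8.24 FPKM in the cold and 14.81 at 29 °C, against 0.38 and 0.41 in WT (ratio 0.556, 0.433 to 0.711). Its promoter peak, 64 bp upstream of the start (chr3:50247499-50247699), had 6.52 FPKM in the cold and 1.82 at 29 °C, against 0.93 and 1.21 in WT (ratio 3.60, 2.23 to 6.05). So the far site was higher at 29 °C and the promoter site higher at 4 °C. The promoter is shown because a peak was called there: it is the 250 bases before the RefSeq start of Slc7a11, read 5′ to 3′ on the minus strand (GRCm38.p6, chr3:50443614-50443863, another build than the mm9 of the peaks), and no base is marked.

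Slc7a11: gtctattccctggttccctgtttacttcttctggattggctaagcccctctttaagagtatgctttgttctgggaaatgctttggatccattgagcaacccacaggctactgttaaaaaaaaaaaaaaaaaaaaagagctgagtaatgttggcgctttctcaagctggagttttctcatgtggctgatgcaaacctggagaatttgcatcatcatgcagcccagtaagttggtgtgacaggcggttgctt

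The motif AGGTCA, the core of a nuclear receptor binding element, was searched on both strands in the 300 bases around RefSeq start sites. In the cold list 13 genes with far sites also had a promoter peak, 14 peaks in all, and these genes had 35 far sites, or 2.93% of them. The table held 11 of the 13 genes, with 14 start sites that need not be those under the peaks. The motif was in none of these 14 promoters and in 16.3% of all 32851 promoters, and its absence from these windows shows nothing about binding. At these promoter peaks the ratio had a median of 2.33 (0.953 to 4.66) and the interval lay above 1 at 12.

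Tab2, an adaptor of TAK1 kinase signalling, had both kinds of site in 1 neighbourhood. The site at 131 kb upstream had 10.52 FPKM in the cold and 17.94 at 29 °C, against 1.48 and 0.61 in WT (ratio 0.586, 0.469 to 0.730). Of its other 3 far sites, at 221 to 232 kb, that at 232 kb had 9.34 and 1.57 FPKM, against 1.48 and 0.81 in WT (ratio 5.97, 3.66 to 10.3). Gpam, the mitochondrial glycerol-3-phosphate acyltransferase gene of triglyceride synthesis, had 2 far sites, at 261 and 279 kb, and both were shared. Their ratios were 0.583 (0.386 to 0.873) and 0.689 (0.444 to 1.06), so the second did not differ beyond counting error.

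The most far sites of the 29 °C list belonged to the long non-coding gene 4933416E03Rik, whose nearest protein-coding neighbours in RefSeq are Dhx35, an RNA helicase gene, and Gm826. It had 7 far sites in the 29 °C list, more than any other gene, of which 5 were listed at 29 °C only. The highest of these, 196 kb upstream in an MLT1H2 repeat (chr2:159577219-159577419), had 2.60 FPKM in the cold and 9.88 at 29 °C, against 0.93 and 0.81 in WT (ratio 0.262, 0.173 to 0.388). A site 193 kb upstream, shared and in an ORR1E repeat, had 7.15 and 11.85 FPKM, against 0.56 and 1.01 in WT (ratio 0.603, 0.458 to 0.789). The remaining 4 of the 29 °C only sites had ratios of 0.559, 0.815, 0.878 and 0.931, and the interval lay below 1 for the first of them alone. The cold list held 4 far sites of the gene, with ratios of 0.603, 0.987, 1.58 and 2.1. Within 1 neighbourhood, then, 3 sites had an interval below 1 and 2 an interval above 1.

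Such mixed neighbourhoods were few, as were far sites with an interval below 1. In both lists together, counting shared sites once, 300 of 635 genes had more than 1 far site. In 12 genes at least 1 far site had an interval above 1 and at least 1 an interval below 1. Far sites with an interval below 1 numbered 31 and belonged to 28 genes, so no more than 28 genes could be mixed. These counts are those under scaling by pool reads.

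Usp24, a deubiquitinase gene, had the highest of the far sites listed at 29 °C only, 193 kb upstream (chr4:105795759-105795959), with 6.05 FPKM in the cold and 10.95 at 29 °C, against 1.85 and 0.81 in WT (ratio 0.552, 0.411 to 0.736). The 8 far sites of the cold list beside Usp24 all had intervals above 1. Of the 8 highest sites listed at 29 °C only, those beside Ddx10 (ratio 0.376), a helicase gene, and Pxdc1 (0.238) also had intervals below 1, as did both 4933416E03Rik sites. At Nudt4 (0.817), Ly86 (0.967) and 9530026F06Rik (1.08) the interval included 1, so these sites did not differ beyond counting error although they were listed at 29 °C only.

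Some neighbourhoods held many far sites. The 1194 far sites of the cold list were assigned to 615 genes, of which 331 had 1 site and 284 more than 1. The 33 genes with at least 5 held 236 far sites. At 29 °C the 262 sites belonged to 193 genes, and 3 of these had at least 5.

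Zfp608, a zinc finger gene, had the most, with 15 far sites in the cold list at 106 to 516 kb. Their HA-RevErba values ran from 3.54 to 29.1 FPKM at 4 °C and from 1.33 to 12.59 at 29 °C. The ratio ran from 1.11 (0.790 to 1.58) to 4.95 (2.87 to 9.05), and 4 of the 15 were shared. The ratios of sites of this 1 gene thus differed several-fold. Over all far sites of the cold list the 10th to 90th percentile of the ratio was 1.73 to 6.34, and the spread within the gene was not tested. The top of the Zfp608 range rests on 29 °C values near background. The site with a ratio of 4.95 had 1.33 FPKM (16 reads) at 29 °C, against 1.21 in WT. A site with a ratio of 4.16 had 1.82 FPKM, against 3.2 in WT.

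Plpp3, a lipid phosphate phosphatase gene, had 13 far sites, all downstream at 108 to 501 kb, of which 5 were shared. Usp24 is the next protein-coding gene on that side in RefSeq, and its 8 far sites lay upstream of it, at 121 to 342 kb. This stretch of 930 kb therefore held 21 far sites at 4 °C, with ratios of 0.919 to 8.26 and intervals above 1 at 20. No interval there lay below 1 in the cold list, and the 29 °C only site of Usp24 was the 1 exception in the 29 °C list.

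Tbl1xr1 encodes a subunit of the NCoR corepressor complex through which Rev-Erbα acts. Its 11 far sites lay upstream at 114 to 700 kb, none was shared, where 16.4% of all far cold sites were, and no far site of the 29 °C list belonged to it. The highest of them, at 141 kb (chr3:21834912-21835112), had 21.50 FPKM in the cold and 5.27 at 29 °C, against 4.8 and 4.2 in WT (ratio 4.08, 3.10 to 5.45). The largest ratio, 13.8 (5.12 to 52.4) at 198 kb, came from 4.56 FPKM in the cold and 0.34 at 29 °C, where WT had 0.75 and 0.81. All 11 intervals lay above 1, from a lowest ratio of 1.84 (1.13 to 3.04). Nearer peaks of Tbl1xr1 included 1 at 80.9 kb upstream that was shared (ratio 3.36, 2.66 to 4.27) and 1 at the promoter, 71 bp past the start (2.63, 1.57 to 4.57).

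Klf4, a Krüppel-like transcription factor gene induced early in fat cell differentiation, had 9 far sites, all upstream at 130 to 582 kb. The site at 498 kb had equal levels within counting error, with 11.69 FPKM in the cold and 11.11 at 29 °C, against 0.38 and 0.41 in WT (ratio 1.05, 0.828 to 1.34). The other 8 had intervals above 1, up to 5.72 (2.68 to 14.0). Pik3r1, the regulatory subunit gene of phosphoinositide 3-kinase, had 8 far sites on both sides of the gene, with ratios of 1.38 to 3.58 and all intervals above 1. Its 29 °C only site, at 112 kb downstream, had 2.21 FPKM in the cold and 4.12 at 29 °C, against 0.93 and 0.01 in WT (ratio 0.534, 0.324 to 0.865).

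The other genes with the most far sites were non-coding or pseudogenes. The long non-coding gene 1700019E08Rik, between Zeb2 and the activin receptor gene Acvr2a, had 10 sites with ratios of 2.36 to 7.15. D030024E09Rik, between A1bg and the growth regulator gene Myc, had 10 with ratios of 1.45 to 6.04, and the pseudogene H2afy3 had 10 with ratios of 0.879 to 4.65. Intervals lay above 1 at all 10 sites of the first and of the second, and at 7 of the third.

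**Figure D3:**
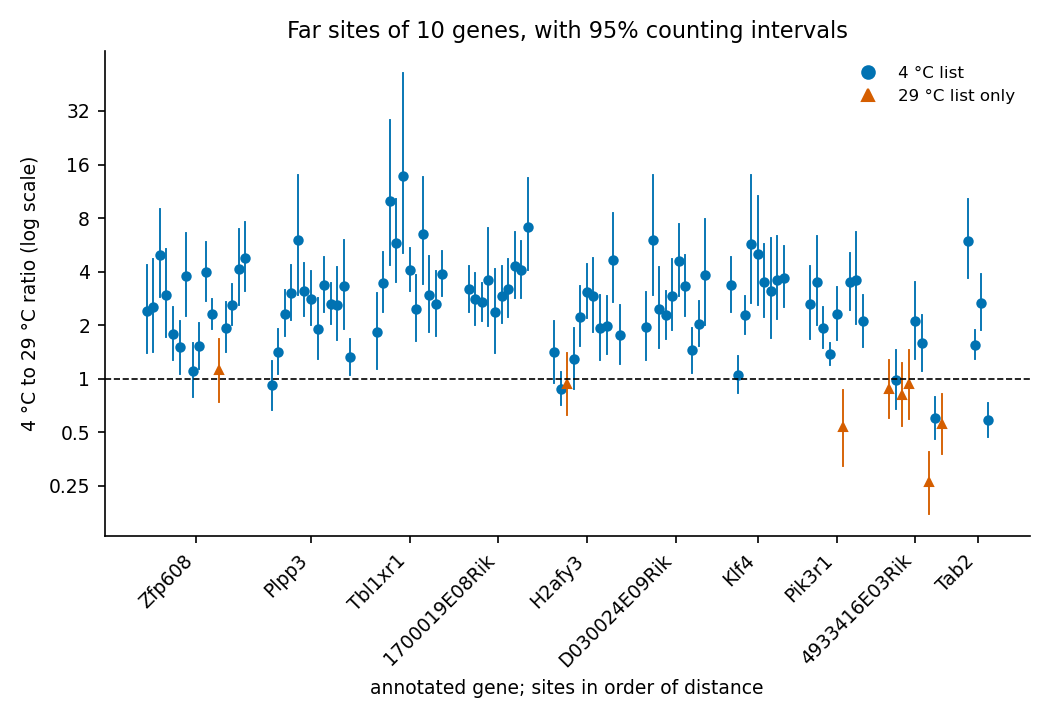
The 4 °C to 29 °C ratio (y axis, log scale) at each far site of 10 genes, in order of distance within a gene along the x axis; lines are exact 95% intervals of counting error, circles are sites of the 4 °C list and triangles sites listed at 29 °C only. Circles beside Tbl1xr1 all lie above 1, with ratios of 1.84 to 13.8, while 7 of the 9 sites beside 4933416E03Rik lie below 1.

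More generally, far sites often named genes that do not encode protein. The annotated gene was not protein-coding for 299 far sites of the cold list, or 25% (22.6 to 27.6), beside 15.6% of its other sites and 17.8% of intergenic sites within 100 kb. In the 29 °C list it was so for 78 far sites, or 29.8%. At 4 °C the share was 22.1% at 100 to 150 kb and 32.1% beyond 500 kb. For 688 far sites of the cold list, or 57.6%, the same gene also had a peak within 100 kb. At 29 °C this held for 69, or 26.3%.

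Gene lists for clock, fat and cell identity functions show which known genes the far sites name. Of 400 genes in 15 lists, 47 had a far site in the cold list, with 89 sites in all. No far site named a gene of the lists for fatty acid oxidation, endothelium, skeletal muscle, or smooth muscle, pericytes and fibroblasts. These lists had 29, 38, 3 and 9 peaks of the cold list at any distance, where 10.6% of all its peaks were far. The absence was not tested, and Esm1, the endothelial gene with a far site named above, was not in the endothelial list. The only clock gene with a far site was Rorb, a member of the ROR receptors that bind the same element as Rev-Erbα, at 104 kb with 6.52 FPKM in the cold and 3.05 at 29 °C, against 1.12 and 0.41 in WT (ratio 2.14, 1.44 to 3.24). The clock genes had 56 peaks in the cold list at any distance, at 17 of 24 genes. The Rorb site was thus 1 of 56 peaks, where 10.6% of all peaks of the cold list are far intergenic, and this difference was not tested.

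Of 30 thermogenesis genes, Dio2 and Ppargc1a had far sites, with 2 each in the cold list and none at 29 °C. These were 4 of the 48 peaks that the list had in the cold at any distance, at 17 genes. Over the whole cold list 10.6% of peaks were far, and the difference was not tested. Dio2, the deiodinase gene that activates thyroid hormone in brown fat, had sites at 159 and 164 kb. The first had 14.20 FPKM in the cold and 5.93 at 29 °C, against 2.96 and 2.60 in WT (ratio 2.40, 1.81 to 3.20). The second, with 8.24 and 0.67 FPKM against 1.85 and 1.41 in WT, had a ratio of 12.5 (6.12 to 29.7), its 29 °C value lying below that of WT. Ppargc1a, the gene of the coactivator PGC-1α, had 1 site on each side. That at 258 kb upstream had a ratio of 2.30 (1.37 to 3.97). That at 278 kb downstream had 4.32 FPKM in the cold and 3.30 at 29 °C, against 0.75 and 0.61 in WT, and did not differ beyond counting error (1.31, 0.857 to 2.02).

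Transcription factor genes were in 2 of the lists. Of 36 adipogenic and fat-cell transcription factor genes, 8 had 23 far sites among 119 peaks at any distance, 9 of them beside Klf4, with a median ratio of 3.13 (1.05 to 7.36) and 22 intervals above 1. They included Klf9, a hormone-responsive Krüppel-like factor, whose shared site at 106 kb upstream had 20.16 FPKM in the cold and 9.63 at 29 °C, against 2.77 and 1.21 in WT (ratio 2.09, 1.68 to 2.63). Nfia, a driver of the brown fat programme, had a site at 143 kb upstream with 14.05 and 3.88 FPKM, against 2.77 and 2.20 in WT (3.63, 2.62 to 5.12). Foxo1, an insulin-regulated factor, had 11.07 and 3.63 FPKM at 234 kb downstream, against 2.04 and 2.20 in WT (3.06, 2.16 to 4.39). This list also had 7 far sites at 29 °C. The 1 of these beside Tcf7l2, a Wnt pathway factor, was listed at 29 °C only, with a ratio of 0.527 (0.314 to 0.869). Those beside Klf6 (2.19, 1.62 to 3.0) and Foxo1 (1.13, 0.801 to 1.59) were also listed at 29 °C only, and neither interval lay below 1.

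Of 55 developmental transcription factor genes, 12 had 17 far sites among 70 peaks, all with intervals above 1, and a median ratio of 3.77 (2.16 to 11.7). Examples were Tshz2 (3.91), the repressor gene Prdm1 (3.5), known for its role in plasma cells, and Zeb2 (3.22). Growth factor and ligand genes, 8 of 51, had 14 far sites among 58 peaks. Their median ratio was 2.63 (1.10 to 4.61), and all intervals lay above 1. Inhbb, the activin B subunit gene, had 9.66 FPKM in the cold and 2.31 at 29 °C at 169 kb, against 0.93 and 0.81 in WT (4.19, 2.76 to 6.56). Cell adhesion genes, 10 of 43, had 18 far sites among 44 peaks, 16 of them with intervals above 1, and a median of 3.27 (1.05 to 8.48). Over the whole cold list 10.6% of peaks were far, and 94.3% of all its far sites had an interval above 1. Differences of these 4 lists from those shares were not tested. The medians of these 4 lists sat around the 3.05 of all windows, and under the factor of 1.71 the lowest ratios of all but the developmental list fell below 1.

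Metabolic lists are given with their peaks at any distance, since 10.6% of all peaks were far. Lipid synthesis, uptake and storage genes had 4 far sites among 77 peaks, beside Gpam and Lpin1, the gene of a phosphatidate phosphatase. The highest Lpin1 site, at 153 kb, had 4.56 FPKM in the cold and 0.83 at 29 °C, against 0.93 and 1.21 in WT (ratio 5.53, 2.80 to 12.1). Fatty acid oxidation genes had none among 29 peaks. Glucose uptake and glycolysis genes had 1 among 40, beside the phosphofructokinase gene Pfkp at 700 kb (5.55, 2.90 to 11.7). Of markers for other cell types, the macrophage receptor gene Tlr4 had 1 far site (4.39) and Ntrk2, a neurotrophin receptor gene, 2. The macrophage list had 14 genes with 9 peaks of the cold list at any distance. The nerve and Schwann cell list had 13 genes with 16 such peaks. Differences from the 10.6% of all peaks were not tested.

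Beyond 100 kb the sites thinned out with distance. The median distance was 171 kb at 4 °C (quartiles 127 and 259) and 167 kb at 29 °C. At 4 °C 78 sites lay beyond 500 kb and 13 beyond 1000 kb, and at 29 °C 13 lay beyond 500 kb. The farthest were 1458 kb upstream of Got2, an aspartate aminotransferase gene (ratio 9.18), and 1333 kb downstream of Pcdh9, a protocadherin gene (2.1), followed by Igsf11 (4.23) and Nudt12 (4.45). None of these 4 was shared. The median ratio was 3.03 at 100 to 150 kb, 3.09 at 150 to 200 kb, 2.96 at 200 to 300 kb, 3.0 at 300 to 500 kb and 3.76 beyond 500 kb, and the share of sites that were shared was 17.8%, 14.7%, 17.9%, 15.2% and 11.5%. Ratios thus moved little up to 500 kb.

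At the limit itself, the sites just inside lay beside Atp6v1b2 (ratio 1.92), Itgb8 (9.22) and 1700027F09Rik (4.68). Those just outside lay beside Mir680-3 (4.45), Ccnl1 (2.98) and Syt13 (1.73). The ranges on the 2 sides overlap. At Itgb8 the ratio (interval 4.64 to 20.8) rests on 9 HA-RevErba reads at 29 °C, 0.75 FPKM against 0.61 in WT.

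Far sites lay about evenly on both sides of the start in the cold list, and in the 29 °C list most were upstream. Upstream of the start were 623 of the 1194 far sites at 4 °C, or 52.2% (49.3 to 55), and 159 of 262 at 29 °C, or 60.7% (54.5 to 66.6). Shared far sites were upstream in 59.7% and those listed at 4 °C only in 50.7%. Intergenic sites within 100 kb were upstream in 69.4% at 4 °C and 70.2% at 29 °C. An intergenic site downstream of a start lies past the end of that gene, which an upstream site does not.

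**Figure D4:**
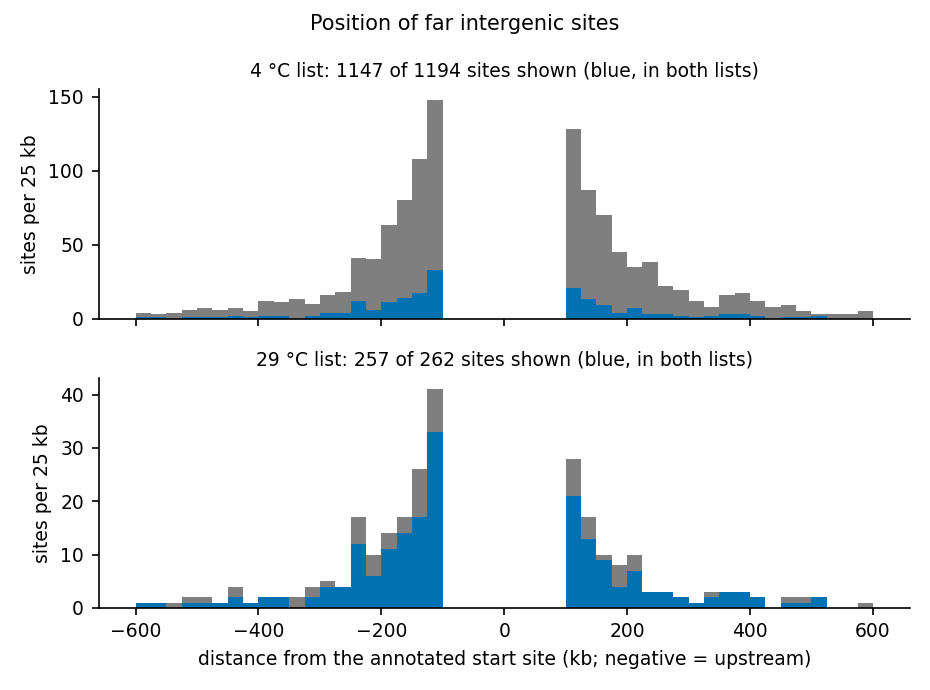
Number of far sites per 25 kb (y axis) by signed distance from the annotated start site in kb (x axis, negative upstream), for the 4 °C list (top) and the 29 °C list (bottom); blue marks shared sites and the gap in the middle is the 100 kb limit. The sites farthest from a start are left out of the drawing, and in the 29 °C list 159 of 262 sites are upstream.

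Peaks close to a far site were counted in each list, with no test. Another peak of the cold list lay within 10 kb of 408 far sites, or 34.2% (31.5 to 36.9), beside 41.4% (40.4 to 42.4) of the other sites. In the 29 °C list the shares were 17.6% and 16.6%. In the 226 pairs of adjacent far sites up to 10 kb apart, the ratios differed by a median of 0.55 on the log2 scale, beside 0.60 in the 229 pairs at 10 to 50 kb and 0.67 in the 247 pairs at 50 to 1000 kb. Spearman's rho between the ratios of a pair was 0.23, 0.24 and 0.12 in these groups. Adjacent pairs of other sites differed by 0.52, 0.59 and 0.64, with rho of 0.24, 0.13 and 0.05. These values are descriptions: counting error adds to every difference, and all windows of a pair share the same pools.

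In the cold list, repeats held about the same share of far sites as of nearer intergenic ones. The centre of 190 far sites of the cold list, or 15.9%, lay in an annotated repeat, beside 15.8% of intergenic sites within 100 kb. Long terminal repeat (LTR) elements led with 91, followed by LINE elements with 52, SINE with 22 and DNA transposons with 19. In the 29 °C list 48 far sites, or 18.3% (13.8 to 23.5), lay in a repeat, beside 14.3% of intergenic sites within 100 kb.

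Sharing is given by repeat family, beside the 16.4% of all far cold sites that were shared, with few sites per family and no test. Of 46 far sites in MaLR elements, a family of LTR retrotransposons, 12 were shared (26.1%), and of 42 in L1 elements 3 were (7.14%). Among intergenic sites within 100 kb, 24.8% of 125 MaLR sites and 6.40% of 125 L1 sites were shared, and over all peaks of the cold list 20.6% and 9.44%. Within MaLR, the ORR1E subfamily had 13 far sites in the cold list, 5 of them shared (38.5%), beside 12 of 32 nearer intergenic sites (37.5%). All 5 far ORR1E sites of the 29 °C list were shared, where 74.8% of all far sites in that list were. Reads from repeats can align to other copies. The deposited logs count 0 reads aligned more than once in each of the 12 libraries, and how reads with several possible positions were handled before that is not stated in the sources used here.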

How the data were processed

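Read alignment was logged per library, and the authors deposited 1 annotated peak list per temperature, made on pooled libraries per the file headers. The submitters' processing notes name Bowtie2 2.1.0, HOMER 4.10 and mm9 without their roles. Peak-calling settings are not stated there. Deposited FPKM values hold 0.01 added to each. The deposited score, the deposited difference from WT and the distance to the start site were used as given by the authors, as were the aligned read counts of the deposited logs and their percent of reads not aligned.

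In each pool, FPKM less 0.01 were whole multiples of 1 step, with a tolerance of 0.01 FPKM (100% of values), so reads per window and pool sizes could be recovered. The step of 1 read was 0.0784 and 0.0822 FPKM in the HA-RevErba pools at 4 and 29 °C, and 0.184 and 0.199 FPKM in the WT pools. The pools held 39.5% to 49.8% of the aligned reads of their libraries. Reads are not independent molecules, so intervals cover counting error only, and 3 reads, the limit that a count of 0 allows, are 0.235 and 0.247 FPKM in the HA-RevErba pools. Ratios and intervals were computed with Python 3.11.15, SciPy 1.17.1 and pandas 2.3.3, and tested on simulated reads. Values of shared sites were read in the window of the list named. Coordinates are those of the files, and whether starts count from 0 or 1 is not given. Annotated genes were matched by gene ID to RefSeq (GRCm38.p6), all 615 at 4 °C and all 193 at 29 °C, for names and neighbours only.

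The sites and gene lists were chosen with earlier results of these data known. Named sites were the 12 of highest score, the 12 highest shared, the 6 of largest and of smallest ratio with at least 20 reads at 29 °C (1 of the latter is not reported here), the 8 highest listed at 29 °C only, those of listed genes (up to 4 per list), the 8 genes with most far sites, the 4 farthest sites and 3 on each side of the limit, with further sites of those genes. The joint stretches of Plpp3 with Usp24 and of Irf2bp2 with Tomm20 were picked after their values were seen. Alternatives were other distance limits, peak thresholds, overlap rules, scalings, pseudocounts and interval levels.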

Additional observations from a re-analysis of the deposited data

How the results depend on the processing

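No paired analysis was possible because values per site exist only for pools, and for the same reason no library could be left out. Of 47 alternative values for 11 results, 15 stayed within the spread of the value as reported (for counts, within 1.5 times), 31 moved by more and 1 reversed. The number of far sites at 4 °C (1194, 10.6%) was 2182 (19.4%) beyond 50 kb, 465 (4.14%) beyond 200 kb, 1858 (16.5%) with any annotation class, 551 (10%) with at least 6 FPKM over WT, 714 (11.8%) with at least 6 times WT and 202 (9.25%) in the shortened list, an alternative added after seeing the data. At 29 °C the number (262, 12%) was 458 (21.0%), 101 (4.63%) and 383 (17.5%) for the first 3 of these, and 82 with at least 6 FPKM over WT. The shared percent of far 4 °C sites (16.4) was 29.0 with at least 6 FPKM over WT and 47.5 in the list shortened to 2183 peaks. The median ratio at far 4 °C sites (3.06) was 2.96, 2.12 and 1.79 when WT reads were equalised over far 4 °C, shared and all 29 °C windows, 4.77 after subtracting WT, and 2.67 and 2.41 with 0.5 and 1 FPKM added. At far 29 °C sites it turned from 1.53 to 0.898 with WT equalised over all 29 °C windows, and was 1.51 over all 4 °C windows. The share with an interval above 1 (94.3%) was 64.4% with that scaling and 91.1% with 99% intervals. The share with a peak within 10 kb (34.2%) was 24.1% within 5 kb and 63.6% within 50 kb. The median of 6.75 FPKM was 10.2 FPKM in the list with at least 6 FPKM over WT.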

Other observations

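Far sites made up unequal parts of the chromosomes' peaks. Of 533 peaks of the 4 °C list on chromosome 13, 112 were far (21.0%), while on chromosome 19 13 of 317 were (4.1%) and on chromosome 11 36 of 722 (4.99%). Chromosome 13 also had the most far sites at 29 °C, 23, together with chromosome 2. Gene density along these chromosomes was not compared.

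Simple repeats, short tandem runs, held 4 far sites of the 4 °C list, with a median ratio of 1.16, among them the sites beside 2900052N01Rik and Slc7a11. The 10 intergenic sites within 100 kb in simple repeats had a median ratio of 2.61, and 1 of them was shared. Over the whole 4 °C list 33 peaks lay in simple repeats, with a median ratio of 2.0, and 9 of them were shared (27.3%). In the whole 29 °C list there were 14, with a median ratio of 0.818 where all windows had 1.64. This class was singled out after its values were seen, with few sites behind it, and the part played by read alignment in such sequence was not tested.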
